A study of Mus musculus with 18 samples.

Results

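Adult cartilage cells were the 2510 stromal cells, of 6267 stromal cells in the adult library and 56201 cells in the whole data set, that held 5 or more unique molecular identifiers (UMIs, counted mRNA molecules) summed over Acan and Hapln1. These transcripts encode aggrecan and the link protein that fastens aggrecan to hyaluronan. The cells were chosen by measured counts of these genes, so the levels of both, and of the genes that go with them in the same cells, describe the selection and were not tested. The label was checked against Sox9, which encodes the master transcription factor of chondrocytes and which the rule did not read. It had at least 1 UMI in 2326 of the cells (92.7%), against 28.9% of the other adult stromal cells and 5.975% of cells with an endothelial code, both of which were shallower. Among cells outside the rule, Sox9 was found in 48.0% of those with the deposited code F10 and 40.4% of those with the code Osteo.

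Cartilage is built by chondrocytes, which secrete a matrix of type II collagen fibrils filled with aggrecan. In a growing bone the chondrocytes of the growth plate pass from a resting reserve through dividing columns to prehypertrophic cells that make Indian hedgehog, and then to hypertrophic cells that make type X collagen next to the marrow. The cartilage of joint surfaces is a separate tissue whose outermost cells make lubricin, encoded by Prg4, and insertions of tendon and ligament carry a fibrous kind of cartilage.

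The series profiled blood progenitors and stroma of C57B6/J mouse bone marrow at 4 stages, E16.5, E18.5, P0 and adult, by droplet single-cell RNA sequencing with antibody tags. No treatment or altered allele is named for any group used here. The adult stroma came from crushed tibias, femurs, pelvic bones and spines of several mice pooled into 1 library; bone chips and some of the released marrow were digested with collagenase and sorted as CD45-Ter119- cells, the gate that leaves out blood cells. The younger stroma came from the skeleton without the bones of the head, so bone site, library and stage cannot be told apart. Joint surfaces, growth plates and spinal discs were not separated before digestion, and the labels give the age of these mice only as adult.

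Each stage was 1 stroma library, so no difference below has a replicate check or a p-value. Levels are counts per 1000000 UMIs (CPM) summed over a group of cells. Ranges in brackets are 95% intervals, exact Poisson for levels and exact binomial for shares of cells, and cover counting error only. The adult stroma library held 91868751 UMIs, 57.8% of them in the cartilage cells, which had a median of 18077 UMIs and 3897 genes per cell against 9437 and 3007 in the other adult stroma. Endothelial-coded cells outside the rule, used below to read the level of free RNA, had a median of 5176 UMIs. Of the 6267 cell barcodes, 84 occurred in another library as well, 33 of them on cartilage cells (1.315%).

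The cartilage cells made up 40.05% of the adult stroma (38.8 to 41.3%). The same rule took 53.1% of the stroma at E16.5, 74.2% at E18.5 and 61.55% at P0, from other sets of bones. Within the adult cells the summed Acan and Hapln1 count had a lower quartile of 15, a median of 49.5 and an upper quartile of 200, and reached 978. Both transcripts were detected in 2386 cells, Acan alone in 110 and Hapln1 alone in 14.

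Just inside the threshold, the 167 cells with 5 to 6 UMIs had 191 CPM of Sox9 and 1316 CPM of Col2a1, the type II collagen gene. Just outside it, the 276 cells with 3 to 4 UMIs had 146 and 486.5 CPM. The 1502 cells with 30 or more UMIs had 942 and 51156 CPM. The selected cells thus ran from a margin with little type II collagen to cells with much of it. Of the cells at 5 to 6 UMIs, 37.7% carried the deposited code F10, 31.1% F9 and 16.2% Osteo, whereas 70.4% of those at 30 or more carried C9, C10 or C11.

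The deposited annotation split the cartilage cells over 16 codes, and 6 of them held all but 134 of the cells (5.34%). The code F9 held 842 cartilage cells (33.55%, 31.7 to 35.4%), C9 held 572 (22.8%) and C10 held 374 (14.9%). F10 held 302 (12.0%), Osteo 153 (6.10%) and C11 133 (5.30%). Most cells of C9 (99.5%), C10 (98.2%), C11 (96.4%) and F9 (91.9%) passed the rule. Of F10 only 34.4% passed (31.2 to 37.6%), and of Osteo 42.4% (37.2 to 47.7%). The codes are the submitters' own clusters of these mRNA counts, and the files do not explain them, so the levels given by code describe the clusters. The codes also differed in depth, with medians of 36672 UMIs per cartilage cell in C10 and 38213 in C11 against 12386.5 in F9.

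**Figure D1:**
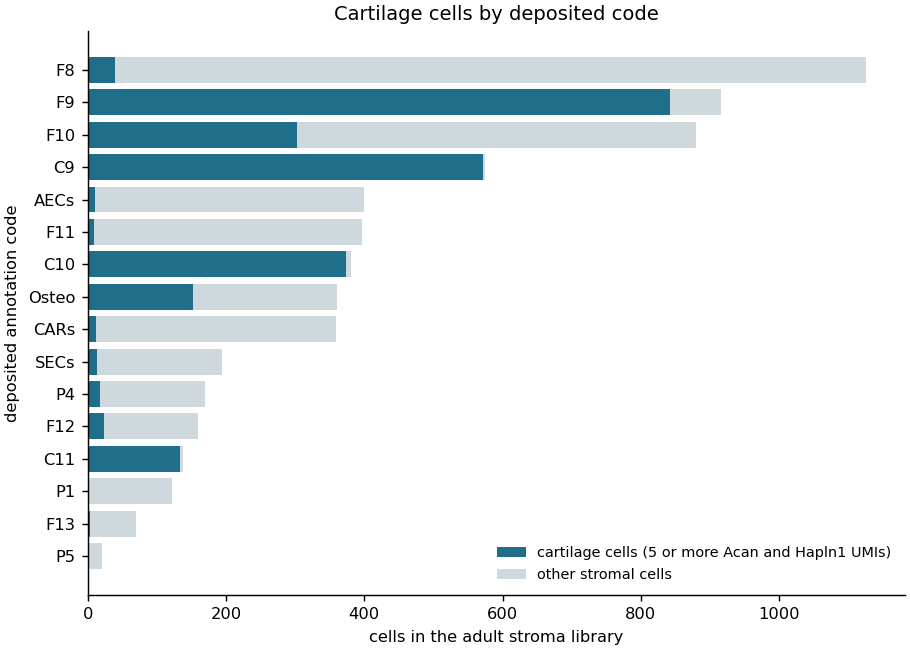
Number of cells of each deposited annotation code in the adult stroma library (y axis, codes; x axis, cells), split into cartilage cells (dark) and the other stromal cells (light). C9, C10, C11 and F9 are almost wholly cartilage cells, F10 and Osteo are divided, and F8, the largest code, has 40 cartilage cells of 1125.

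Among the minor codes, the 40 cartilage cells coded F8 had a median of 26659.5 UMIs against 11706 in the code as a whole. The 25 coded AECs or SECs, the endothelial codes, had a median of 19277 UMIs against 5176 in the rest of these codes. They had 8679.6 CPM of Col2a1 together with 322 CPM of Pecam1, which encodes the endothelial adhesion molecule CD31 and was at 1141 CPM in the rest of these codes and 3.48 CPM in the cartilage cells of C9 to C11. The 12 coded CARs had a median of 21486.5 UMIs against 6994, with 13329 CPM of Col2a1 beside 7851 CPM of Cxcl12, the chemokine of marrow reticular cells. Both sets thus carried cartilage transcripts together with those of their code, and whether a droplet held more than 1 cell was not tested. The 24 coded F12 were different, with 142 CPM of Col2a1, against 216 CPM in the shallower endothelial-coded cells, and at most 22 UMIs of the rule's genes.

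Against the other adult stroma, 1801 genes reached 100 CPM and 50 UMIs in the higher group. Of these, 79 (4.39%) were at least 4-fold higher in the cartilage cells and 159 (8.83%) at least 4-fold lower, and the median log2 ratio of all of them was -0.21. The same cells and genes chose the members, so the counts by gene list that follow are read against these shares only as a description. A gene can also reach the minimum through its higher group alone. Counts of 4-fold genes in a list can then partly restate that filter, in the comparisons of codes and stages as well.

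**Figure D2:**
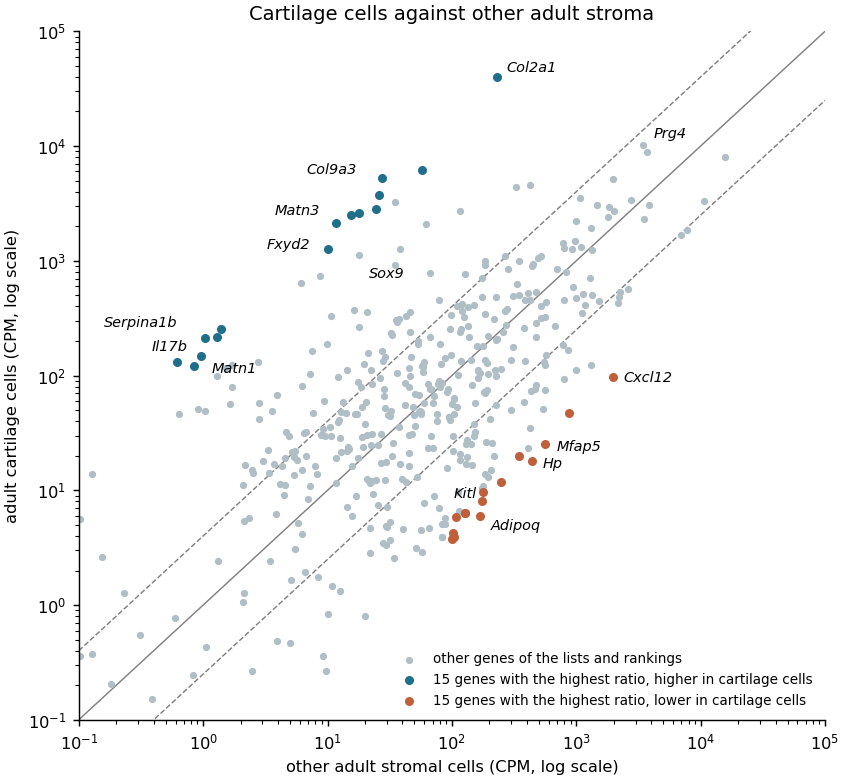
Level of the named genes in the 2510 adult cartilage cells (y axis) and the 3757 other adult stromal cells (x axis), both in CPM of summed counts on log scales, with the 15 genes of the highest ratio in each direction coloured. The solid line marks equal levels and the dashed lines a 4-fold difference; Col2a1 lies at 39605 against 231.5 CPM and Cxcl12 at 97.4 against 1962 CPM.

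All 7 listed cartilage collagens were at least 4-fold higher in the cartilage cells, with a median log2 ratio of 7.17. Col2a1 was at 39605 CPM (39551.5 to 39659) in the cartilage cells and 231.5 CPM (227 to 236) in the other stroma, and at 216 CPM (201.5 to 232) in endothelial-coded cells, which should lack it. The summed Col2a1 level outside the cartilage cells was close to that of endothelial-coded cells. The type IX collagen genes, whose product coats type II fibrils, were at 5257 against 27.35 CPM (Col9a3), 3743 against 26.1 CPM (Col9a2) and 2631 against 18.1 CPM (Col9a1). Col1a1, the type I collagen gene of bone and fibrous tissue, was at 3287 against 10619.9 CPM.

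Of 22 listed proteoglycans and matrix proteins, 21 could be compared, 13 were at least 4-fold higher and 0 were 4-fold lower. Matn3, a matrilin that links collagen fibrils, was at 2149 against 11.65 CPM. Cnmd, which encodes chondromodulin, an inhibitor of blood vessel growth in cartilage, was at 2497 against 15.5 CPM. Other cartilage matrix genes were less than 4-fold apart: Comp, a glycoprotein of cartilage and tendon, was at 8860.3 against 3725 CPM, and Cilp, a protein of the cartilage intermediate layer, at 1252 against 1341 CPM.

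Some genes of the steps that build the sugar chains of aggrecan were higher as well. Of 18 listed genes of glycosaminoglycan synthesis, 6 reached the minimum and 4 were at least 4-fold higher. They were Chst11, a chondroitin sulfotransferase (371 against 16.2 CPM), Papss2, which makes the sulfate donor (359 against 20.7 CPM), Slc26a2, a sulfate transporter (234 against 32.25 CPM), and Xylt1, which starts the chains (225 against 33.0 CPM). All 4 reached the minimum only in the cartilage cells, so this count partly restates that filter. Ugp2, which makes a sugar precursor, was at 102.5 against 193 CPM.

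Among chondrocyte transcription factors, 7 of 15 listed genes reached the minimum and 3 were at least 4-fold higher. Sox9 was at 783 CPM (775 to 790.2) against 66.75 CPM, with 14.5 CPM in endothelial-coded cells, Runx3 at 104 against 7.30 CPM and Wwp2, the host gene of a chondrocyte microRNA, at 330.1 against 42.4 CPM. Sox5, whose product works beside SOX9, was at 199.5 against 53.0 CPM.

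Genes outside the lists of cartilage matrix and transcription factors were also among the 15 of highest ratio. Fxyd2, a regulatory subunit of the sodium pump, was at 1267.5 CPM (1258 to 1277) against 10.1 CPM (9.13 to 11.2), and endothelial-coded cells had 10.8 CPM. Il17b, a cytokine of the interleukin 17 family, was at 132 against 0.619 CPM. Serpina1a, Serpina1b and Serpina1d, copies of the gene for alpha-1-antitrypsin, an inhibitor of neutrophil elastase made mainly by the liver, were at 254, 213 and 218 CPM against 1.39, 1.03 and 1.29 CPM.

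The Serpina1 copies lie in a cluster on chromosome 12 of build GRCm38.p6 (mm10), all on the minus strand, with Serpina1b at 103728156-103738189, Serpina1d at 103763587-103773633 and Serpina1a at 103853295-103863619. Reads of near-identical copies can be assigned to the wrong one, so the level of each copy is less certain than their sum. Of the 50-base windows in the last 500 bases of the annotated transcripts, the end that this 3' method reads, 31.3% of Serpina1a, 29.5% of Serpina1b and 41.5% of Serpina1d occur in another copy. The 250 bases before each start, from RefSeq, are printed because these copies were high in the same cells: Serpina1a and Serpina1b are 88.0% identical there, Serpina1a and Serpina1d 89.4%, and Serpina1b and Serpina1d 85.1%. Capitals mark the longest run, of 55 bases, that all 3 share.
Serpina1a (chr12:103863620-103863869, minus strand): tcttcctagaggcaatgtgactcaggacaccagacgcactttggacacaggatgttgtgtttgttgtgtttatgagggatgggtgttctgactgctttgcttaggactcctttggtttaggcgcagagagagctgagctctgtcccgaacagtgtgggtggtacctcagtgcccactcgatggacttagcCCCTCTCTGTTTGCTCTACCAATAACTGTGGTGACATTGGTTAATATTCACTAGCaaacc
Serpina1b (chr12:103738190-103738439, minus strand): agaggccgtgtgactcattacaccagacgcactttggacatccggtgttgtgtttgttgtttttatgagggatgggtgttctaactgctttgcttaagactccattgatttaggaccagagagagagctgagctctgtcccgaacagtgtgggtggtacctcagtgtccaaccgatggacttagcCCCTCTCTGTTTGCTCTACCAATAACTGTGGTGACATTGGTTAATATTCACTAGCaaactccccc
Serpina1d (chr12:103773634-103773883, minus strand): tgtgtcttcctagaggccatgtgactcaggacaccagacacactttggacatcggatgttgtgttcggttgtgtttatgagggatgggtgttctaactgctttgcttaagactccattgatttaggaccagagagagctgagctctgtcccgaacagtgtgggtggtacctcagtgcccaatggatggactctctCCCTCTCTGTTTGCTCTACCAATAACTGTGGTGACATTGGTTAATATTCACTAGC

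The RefSeq windows of the same length before an annotated start of Acan and of Hapln1, the genes of the rule, follow for comparison; 74.4% of the bases are G or C in that of Acan and 54.4% in that of Hapln1. The letters AACAAT and ACAAAG, forms of the core that SOX proteins bind, were searched on both strands and occur in 9.42% and 16.5% of all 32851 such windows. Neither string is in the 5 windows printed here, nor in the 11 windows of the 10 genes with an entry among the 15 of highest ratio.
Acan (chr7:79052976-79053225, plus strand): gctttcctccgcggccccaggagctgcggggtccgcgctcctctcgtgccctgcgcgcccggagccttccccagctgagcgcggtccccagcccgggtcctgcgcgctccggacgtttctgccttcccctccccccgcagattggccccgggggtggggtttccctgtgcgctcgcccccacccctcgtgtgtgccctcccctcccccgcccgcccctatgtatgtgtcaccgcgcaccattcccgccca
Hapln1 (chr13:89540386-89540635, plus strand): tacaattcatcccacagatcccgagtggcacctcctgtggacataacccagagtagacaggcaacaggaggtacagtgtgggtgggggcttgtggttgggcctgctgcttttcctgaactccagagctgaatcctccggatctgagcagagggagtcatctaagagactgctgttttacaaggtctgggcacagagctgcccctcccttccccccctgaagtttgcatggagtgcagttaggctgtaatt

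Genes that were lower in the cartilage cells included those by which marrow stroma supports blood stem cells. Of 16 listed factors, 9 reached the minimum and 6 were at least 4-fold lower, with a median log2 ratio of -2.91. Cxcl12 was at 97.4 against 1962 CPM, Kitl, the stem cell factor gene, at 6.405 against 127 CPM, and Vcam1, an adhesion molecule, at 10.6 against 173 CPM. Cxcl12, Kitl and Vcam1 reached the minimum only in the other stroma, so the count of 6 partly restates that filter. Spp1, the osteopontin gene, was at 2722 against 2004 CPM. Of the insulin-like growth factor genes 4 of 5 were at least 4-fold lower, with Igf1 at 74.55 against 561 CPM.

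Summed over all cartilage cells, marker lists of other cell types were lower than in the other stroma, except that for Schwann cells. The 8 endothelial markers summed to 57.0 against 928 CPM, each in the cartilage cells between 3.9 and 14 CPM, and the 8 markers of marrow reticular cells to 288 against 3104 CPM. The 10 fibroblast markers summed to 11865 against 34349 CPM, and to 1518.5 CPM in C9 to C11. Fibroblast genes were thus lower in the C codes than in the cartilage cells as a whole. In the F10 cartilage cells, however, these markers made up 5.33% of UMIs. They were 3.435% in the other stroma and 5.443% in F10 cells outside the rule. Blood markers summed to 199 against 238 CPM, with Srgn, a granule proteoglycan, at 173 CPM in F9. Ptprc, the CD45 gene, was at 0 of 53081450 UMIs, where the 3 counts used as a floor for ratios equal 0.0565 CPM.

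Over all cartilage cells the summed levels of bone, tendon, muscle and osteoclast markers were lower too, though not every marker was. Markers of bone-forming cells summed to 8045 against 15134 CPM, tendon markers to 3011 against 5174 CPM, and pericyte and smooth muscle markers to 168 against 1168 CPM. Of the 8 markers of bone-forming cells 5 were lower, and Ibsp was higher, at 3510.0 against 1071 CPM. In the Osteo cartilage cells these 8 markers made up 6.233% of UMIs. They were 1.513% in the other stroma and 9.675% in Osteo cells outside the rule. Skeletal muscle markers summed to 27.05 against 221.5 CPM and osteoclast markers to 145.5 against 439 CPM. The Schwann list summed to 248 against 50.2 CPM through S100b, which chondrocytes also express, at 241 against 45.8 CPM.

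The codes C9, C10 and C11 shared the matrix program. Col2a1 was at 48114 CPM in C9, 65532 CPM in C10 and 59774 CPM in C11, and 98.95%, 100% and 99.25% of their cartilage cells held more than 10 times the endothelial level. Genes at least 4-fold higher in 1 code than in the other cartilage cells numbered 9 for C9 (0.62% of 1452), 16 for C10 (1.04% of 1541) and 70 for C11 (4.44% of 1576). Fxyd2 followed these codes, at 1644.5, 2684 and 1741 CPM against 82.5 CPM in F9, 74.4 CPM in F10 and 85.3 CPM in Osteo.

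**Figure D3:**
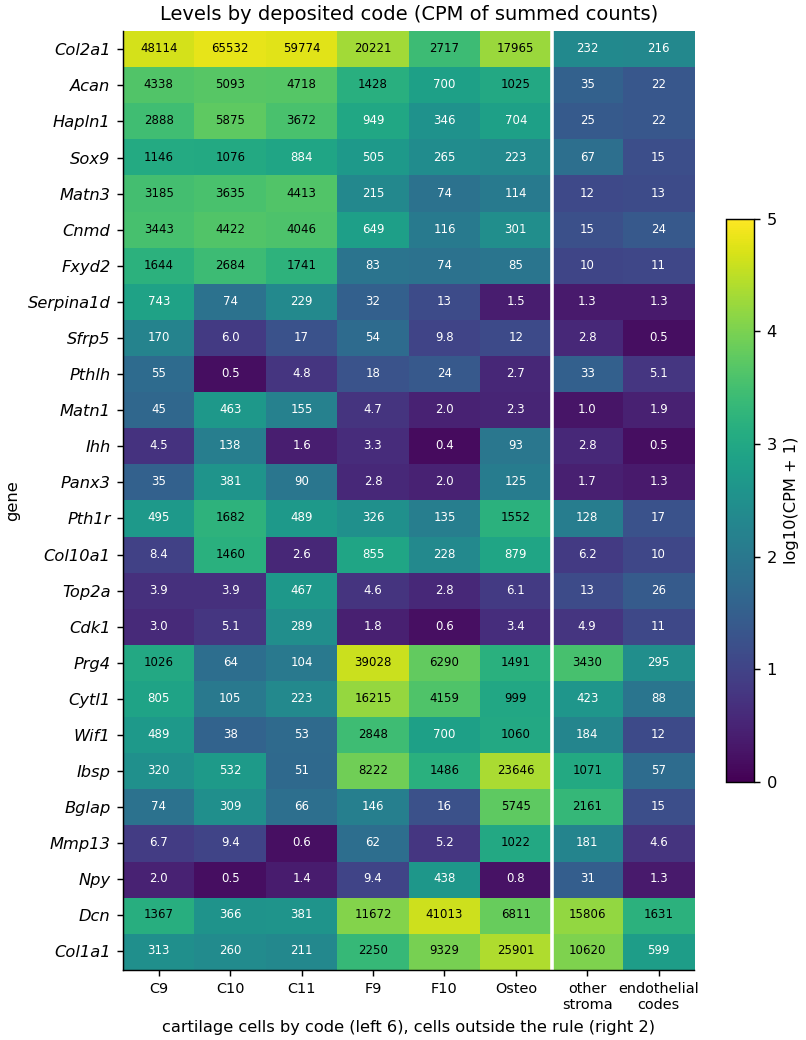
Level of 26 genes (rows) in the cartilage cells of 6 codes and in 2 sets of cells outside the rule (columns), as CPM of summed counts printed in each cell and coloured by log10(CPM + 1). C9, C10 and C11 share the matrix genes; Ihh and Panx3 are highest in C10, Top2a and Cdk1 in C11, Prg4 in F9, Dcn in F10 and Bglap and Mmp13 in Osteo.

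Sfrp5, Notum and Lef1 were among the genes at least 4-fold higher in C9. Sfrp5, a secreted WNT antagonist, was at 170.3 CPM against 25.1 CPM in the other cartilage cells, Notum, an enzyme that inactivates WNT proteins, at 196 against 30.8 CPM, and Lef1, a transcription factor of that pathway, at 176.5 against 23.0 CPM. The listed WNT genes as a whole had no common direction in C9, with 5 comparable, 1 at least 4-fold higher (Sfrp5), 1 at least 4-fold lower (Frzb) and a median log2 ratio of -0.06. Apoe, a lipid carrier, was at 1312.5 against 309 CPM, with 725 CPM in endothelial-coded cells. Pthlh, the parathyroid hormone-related protein of the reserve zone, was at 55.0 CPM in C9 and 0.509 CPM in C10, but also at 32.9 CPM in the other stroma, so it did not mark C9 alone. Of 5 comparable resting zone genes 2 were at least 4-fold higher in C9 and 1 lower, beside 9 and 56 of 1452 comparable genes. In F9 3 of 5 were at least 4-fold higher, beside 26 of 1479.

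The summed Serpina1 level was highest in C9. Summed over the 5 copies in the matrix, these transcripts were at 2308 CPM (2281 to 2336) in C9, 658.5 CPM in C11, 244 CPM (235 to 253) in F9 and 230.3 CPM (222 to 238.5) in C10. They were at 101.5 CPM in F10, 6.86 CPM (4.06 to 10.8) in Osteo and 6.19 CPM (3.93 to 9.29) in endothelial-coded cells. The intervals of F9 and C10 overlapped, and so did those of Osteo and endothelial-coded cells. At least 1 such UMI was found in 69.2% of C9 cells (65.3 to 73.0%), 73.7% of C11 (65.35 to 80.9%) and 64.4% of C10 (59.35 to 69.3%), and in 3.515% of the shallower endothelial-coded cells. C10 and C11 were also deeper than C9. With every cell thinned to 5000 UMIs, a UMI of Serpina1d, 1 of the copies, was found in 49.38% of C9, 37.59% of C11 and 21.98% of C10 cells, against 0.33% of endothelial-coded cells. Without thinning these shares were 60.3%, 62.4%, 45.7% and 0.879%. The level per C9 cell was wide, with a median of 318 CPM and a 90th percentile of 7036 CPM.

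Of 8 comparable prehypertrophic genes, 3 were at least 4-fold higher in C10 than in the other cartilage cells, beside 1.04% of all comparable genes. All 8 had a ratio above 1, as did 934 of 1541 over all comparable genes. Genes such as Ihh and Panx3 reached the minimum only through C10, so these counts partly restate that filter. Ihh, which encodes Indian hedgehog, was at 138 CPM against 8.87 CPM in the other cartilage cells and 0.5385 CPM in endothelial-coded cells. Panx3, a channel protein of maturing chondrocytes, was at 381 against 33.3 CPM, Matn1, a matrilin, at 463 against 36.2 CPM and Nog, the BMP antagonist noggin, at 173 against 20.55 CPM. Pth1r, the receptor for parathyroid hormone-related protein, was at 1682.5 CPM in C10 and 495 CPM in C9. Ihh was held by a minority of C10 cells: 30.5% had a UMI of it, and 18.2% after every cell was thinned to 5000 UMIs, which left out 1 cell.

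All 22 comparable cell cycle genes were at least 4-fold higher in C11 than in the other cartilage cells, beside 4.44% of all comparable genes. These genes reached the minimum only through C11, so the count partly restates that filter. Top2a, which untangles replicated DNA, was at 467 CPM against 4.28 CPM in the other cartilage cells, Cdk1, the mitotic kinase, at 289 against 3.098 CPM, and Pclaf, a factor of the replication clamp, at 323.5 against 1.91 CPM. A Top2a UMI was found in 91.7% of the C11 cells, and in 70.7% after thinning, against 4.62% of endothelial-coded cells thinned alike. None of the 25 listed cell cycle genes reached 100 CPM in the cartilage cells as a whole, of which C11 was 5.30%.

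F9 had the highest Prg4 of the 6 codes. The F9 cartilage cells had 26 genes at least 4-fold higher than the other cartilage cells (1.76% of 1479). Of 11 comparable articular and superficial genes 3 were at least 4-fold higher in F9 than in the other cartilage cells. In F9 10 had a ratio above 1, as did 516 of 1479 over all comparable genes. In F10 8 of 14 were at least 4-fold higher, where 4.9% of all comparable genes were. More of the list was comparable in F10, 14 genes against 11. Genes can reach the minimum through F10 alone, so that count can partly restate the filter. Against the other adult stroma, 1 of 13 was at least 4-fold higher in the cartilage cells and 3 at least 4-fold lower, with a median log2 ratio of -0.32. Prg4 was at 39028 CPM in F9 against 1867 CPM in the other cartilage cells, Cytl1, a cytokine-like secreted protein of cartilage, at 16215 against 1179.8 CPM, and Wif1, a WNT inhibitor, at 2848 against 367 CPM. Grem1, a BMP antagonist, was at 171 against 12.7 CPM. Col2a1 was at 20221 CPM, above 10 times the endothelial level in 79.2% of cells (76.3 to 81.9%), whereas Matn3 was at 215 against 2713 CPM.

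Prg4 varied widely from cell to cell in F9, with a 10th percentile of 171 CPM, a median of 10972 CPM and a 90th percentile of 137514 CPM. In C9, C10 and C11 a Prg4 UMI was found in 49.3%, 58.6% and 55.6% of cells. After thinning these shares were 23.8%, 15.0% and 15.8%, below the 33% of endothelial-coded cells. The summed level was 64.3 CPM in C10 and 104 CPM in C11, also below the 295 CPM of endothelial-coded cells. C10 and C11 were deeper, with medians of 36672 and 38213 UMIs against 5176. A given amount of free RNA is a smaller share of a deeper cell, before and after thinning. Whether Prg4 in these codes was background was therefore not tested. In C9 it was 1025.5 CPM, above the endothelial level, with a median of 0 CPM per cell and 2374 UMIs in the highest cell.

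The F10 cartilage cells, so named only because they passed the rule, had the lowest Col2a1 of the 6 codes. Their median was 169 CPM per cell against 194 CPM in endothelial-coded cells, which were shallower, with medians of 15567 and 5176 UMIs. A Col2a1 UMI was found in 88.1% of F10 cartilage cells and 71.9% of endothelial-coded cells. After thinning to 5000 UMIs these shares were 62.4% and 62.05%. Of the 302 F10 cartilage cells 29 (9.60%) exceeded 10 times the endothelial level. They had 79 genes at least 4-fold higher than the other cartilage cells (4.9% of 1612), led by Npy, the neuropeptide Y gene, at 438 against 4.30 CPM. Vcan, a large proteoglycan of fibrous tissue, was at 1373 against 53.0 CPM, Angptl7, a secreted angiopoietin-like protein, at 1163 against 45.1 CPM, and Dcn, the small proteoglycan decorin, at 41013 CPM. Prg4 was high on both sides of the rule, with a median of 2864 CPM per F10 cartilage cell and 2059 CPM per F10 cell outside it, against 0 CPM in endothelial-coded cells. Comp and Chad were high on both sides as well, with medians of 11461 and 7517 CPM inside the rule against 10970 and 5856 CPM outside. Cartilage collagens made up 0.4442% of UMIs in the F10 cartilage cells, 0.06681% in F10 cells outside the rule and 8.883% in C9 to C11.

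The Osteo cartilage cells were divided in type II collagen. Of 153 cells, 53 (34.6%, 27.1 to 42.75%) exceeded 10 times the endothelial Col2a1 level, the median was 278 CPM and the 90th percentile 51725.5 CPM. Cells above that level had 44481 CPM of Ibsp, the bone sialoprotein gene, and 213 CPM of Ihh, and those below it 9547 and 11.5 CPM. Col1a1, the type I collagen gene of bone, was at 13339 CPM above the level and 34401 CPM below it.

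As a group the Osteo cartilage cells had 69 genes at least 4-fold higher than the other cartilage cells (4.42% of 1560). Bglap, the osteocalcin gene, was at 5745 against 152 CPM, Mmp13, a collagenase, at 1022 against 22.2 CPM, and Sfrp2, a WNT modulator, at 395 against 4.14 CPM. Bglap was high on both sides of the type II collagen level, at 6253 CPM above it and 5401 CPM below. Osteo cells outside the rule had more of it in sum, 27722 CPM, with a median of 1254 CPM per cell against 727 CPM in the Osteo cartilage cells.

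Type X collagen, the hallmark of hypertrophic chondrocytes, was held by few cells. The 130 cells with 10 or more Col10a1 UMIs, 2.07% of the adult stroma, were all cartilage cells and held 97.8% of the library's Col10a1 UMIs. They fell mainly into F9 with 77 cells and C10 with 36, and Osteo had 9, F10 5 and C9 2. No cell outside the rule had more than 4 UMIs, and endothelial-coded cells had 10.5 CPM.

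The Col10a1 cells of C10 and of F9 carried different companion genes. In C10, 34 of 36 had Ihh (94.4%), at 555 CPM, with 646.5 CPM of Panx3 and 3869 CPM of Pth1r, and 0 had 50 Prg4 UMIs. In F9, 2 of 77 had Ihh (2.60%), at 1.47 CPM, with 5.13 CPM of Panx3 and 281 CPM of Pth1r, and 64 had 50 or more Prg4 UMIs (83.1%). Of the 9 Osteo cells 6 had Ihh and 1 had 50 or more Prg4 UMIs, and they had 49797 CPM of Ibsp. The codes as a whole differed in the same direction. Over all their cartilage cells Prg4 was at 39028 CPM in F9 and 64.3 CPM in C10. An Ihh UMI was found in 1.306% and 30.5% of their cells. The contrast in Prg4 was thus not particular to the Col10a1 cells. These subsets were chosen by Col10a1 after the values were seen.

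**Figure D4:**
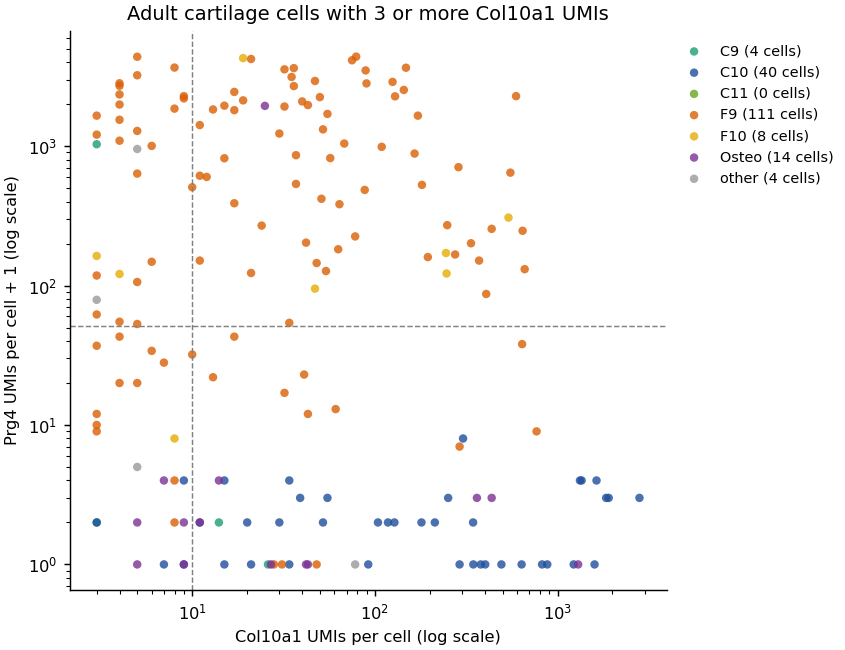
Prg4 UMIs + 1 (y axis) and Col10a1 UMIs (x axis) in each adult cartilage cell with 3 or more Col10a1 UMIs, both on log scales and coloured by deposited code, with dashed lines at 10 Col10a1 and 50 Prg4 UMIs. Among cells past the Col10a1 line, 64 of 77 F9 cells and 0 of 36 C10 cells reach the Prg4 line. Prg4 is also higher in F9 than in C10 over all cartilage cells of these codes.

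Ibsp, often listed with hypertrophic cartilage, was highest in Osteo and F9. It was at 23646.5 CPM in the Osteo cartilage cells, 8222.5 CPM in F9, 1486 CPM in F10 and 532 CPM in C10, with 56.8 CPM in endothelial-coded cells. After thinning, 77.1% of Osteo and 61.3% of F9 cartilage cells had an Ibsp UMI, against 11.2% of endothelial-coded cells. The shares in C9 and C10, 12.3% and 12.3%, lay near the endothelial share, though both codes were deeper before thinning. Their summed levels, 319.5 CPM in C9 and 532 CPM in C10, lay above the endothelial level. In both codes the median was 0 CPM per cell, and the highest cells held 828 and 1214 Ibsp UMIs. Thinning left out 266 of 569 endothelial-coded cells and 35 of 2510 cartilage cells.

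Hedgehog ligand and receptor transcripts were both present in C10. The ligand Ihh was highest in C10 and Osteo, and the receptor Ptch1, also a target of the pathway, was at 189 CPM in C9, 152 CPM in C10, 172 CPM in C11 and 106 CPM in F9 against 27.9 CPM in the other stroma. Hhip, which binds and inhibits hedgehog ligands, was at 312 CPM in C9 and 55.8 CPM in C10. Of 13 genes of both pathways 6 reached the minimum, 3 at least 4-fold higher in the cartilage cells (Ptch1, Hhip and Pth1r) and 0 4-fold lower.

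Other signalling lists were mixed. Fgfr3, the receptor that restrains chondrocyte division, was at 251.5, 276 and 236 CPM in C9, C10 and C11 and 9.95 CPM in the other stroma, while Fgfr1 was at 209 against 229 CPM overall. Of 16 WNT pathway genes 4 could be compared, namely Wnt4, Fzd9, Frzb and Wif1. Each reached the minimum in the cartilage cells and was at least 4-fold higher there, so this count partly restates that filter. Of 24 BMP and TGF-beta genes 10 could be compared, 0 were 4-fold higher and Bmp4 was at least 4-fold lower at 22.04 against 103 CPM.

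Of 21 listed genes of glycolysis and low oxygen 13 could be compared. Of these, 12 had a ratio above 1, against 711 of 1801 among all comparable genes, and their median log2 ratio was 1.07. None was 4-fold higher or lower, beside 4.39% and 8.83% of all comparable genes. In so short a list this is not read as a result. Ldha, lactate dehydrogenase, was at 1058 against 490.1 CPM. Of 21 genes of the secretory pathway and collagen modification 16 had a ratio above 1 and 2 passed 4-fold, among them Plod2, a collagen lysyl hydroxylase, at 1102 against 267 CPM. Of 12 matrix proteases and inhibitors 1 had a ratio above 1 and 3 were at least 4-fold lower, Mmp2 at 186 against 779.9 CPM among them.

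Immediate early and stress genes, which tissue digestion can induce, had a ratio above 1 in 12 of 14 cases with a median log2 ratio of 0.51, and 1 of them, Dnajb1, passed 4-fold at 457 against 78.7 CPM. Dnajb1 was at 922 CPM in C10 and 101 CPM in F9, and Atf3 at 1685 and 201 CPM. Their part in the differences between codes was not tested.

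Antibody tags gave a readout that the rule did not use. Of 29 antibodies in the panel, 4 had 1000 or more counts in the adult stroma: Sca-1, CD140a, CD73 and CD31. The cartilage cells had a median of 48 tags per cell against 71 in the other stroma. CD31 had a median of 4 counts (quartiles 2 and 6) in the cartilage cells and 131 (61 and 282) in endothelial-coded cells. Sca-1 had a median of 17 counts (13 and 25) in the cartilage cells and 56 (26 and 164) in F8 cells outside the rule. The other stroma as a whole had 25 (15 and 58) and F10 cells outside the rule 22 (15 and 31), whose quartile ranges overlapped that of the cartilage cells.

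CD73, the product of Nt5e, made up the largest share of tags in the cartilage cells, at 45.9% against 17.2% in the other stroma. Its median count was close in both, at 22 (13 and 39) and 21 (11 and 42). By code the median was 39.5 in F10, 26 in C11, 24 in C10, 18 in F9, 17 in C9 and 16 in Osteo, and 17 in endothelial-coded cells, so C9, F9 and Osteo lay within 1 count of cells with little of the transcript. Nt5e mRNA was at 189 CPM in the cartilage cells, 80.2 CPM in the other stroma and 20.7 CPM in endothelial-coded cells. In F9, the 213 cells with 38 or more CD73 tags had 329 CPM of Nt5e (309 to 351) against 182 CPM (174 to 191) in the rest, with medians of 107 and 34 tags per cell of any antibody. The same kind of split, with its limit set within each code, gave 444 against 287 CPM in F10 and 207 against 168 CPM in C9, also without overlap of the intervals. In C10 it gave 186 against 179 CPM, in C11 104 against 100.2 CPM and in Osteo 98.02 against 81.3 CPM, and the intervals overlapped in these codes.

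The adult cells were then set beside the 8669 P0 stromal cells of the same rule, which had a median of 15891 UMIs. Of 1476 genes with 100 CPM and 50 UMIs in the higher group, 66 (4.47%) were at least 4-fold higher in the adult and 31 (2.1%) at least 4-fold lower, with a median log2 ratio of 0.01 over all of them. Of the 7 cartilage collagens 0 differed by 4-fold, a list too short to be read against these shares. Col2a1 was at 39605 CPM in the adult and 37697.5 CPM at P0, and Sox9 at 783 and 620 CPM.

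Genes that were lower in the adult included several imprinted genes of fetal growth. Igf2, the fetal growth factor gene, was at 0.151 CPM (0.0651 to 0.297) in the adult and 135 CPM (133 to 137) at P0. H19, the noncoding RNA of the same imprinted locus, was at 145 and 3005 CPM, so it stayed measurable in the adult. Dlk1 was at 6.255 and 2749 CPM, Mest at 35.9 and 833 CPM and Plagl1 at 95.4 and 892 CPM. The other stroma had the same direction, with Igf2 at 0.387 CPM in the adult and 93.2 CPM at P0 and H19 at 28.9 and 2013 CPM.

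Eln, Fbn2 and Matn1 were lower too. Eln, the elastin gene, was at 9.72 CPM in the adult and 208 CPM at P0, and Fbn2, a fibrillin of developing tissue, at 3.485 and 171 CPM. Matn1 was at 147 and 1135 CPM. Of 21 comparable matrix proteins it alone was at least 4-fold lower, beside 2.1% of all comparable genes. Another 6 were at least 4-fold higher, beside 4.47%, and both counts are over all codes.

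**Figure D5:**
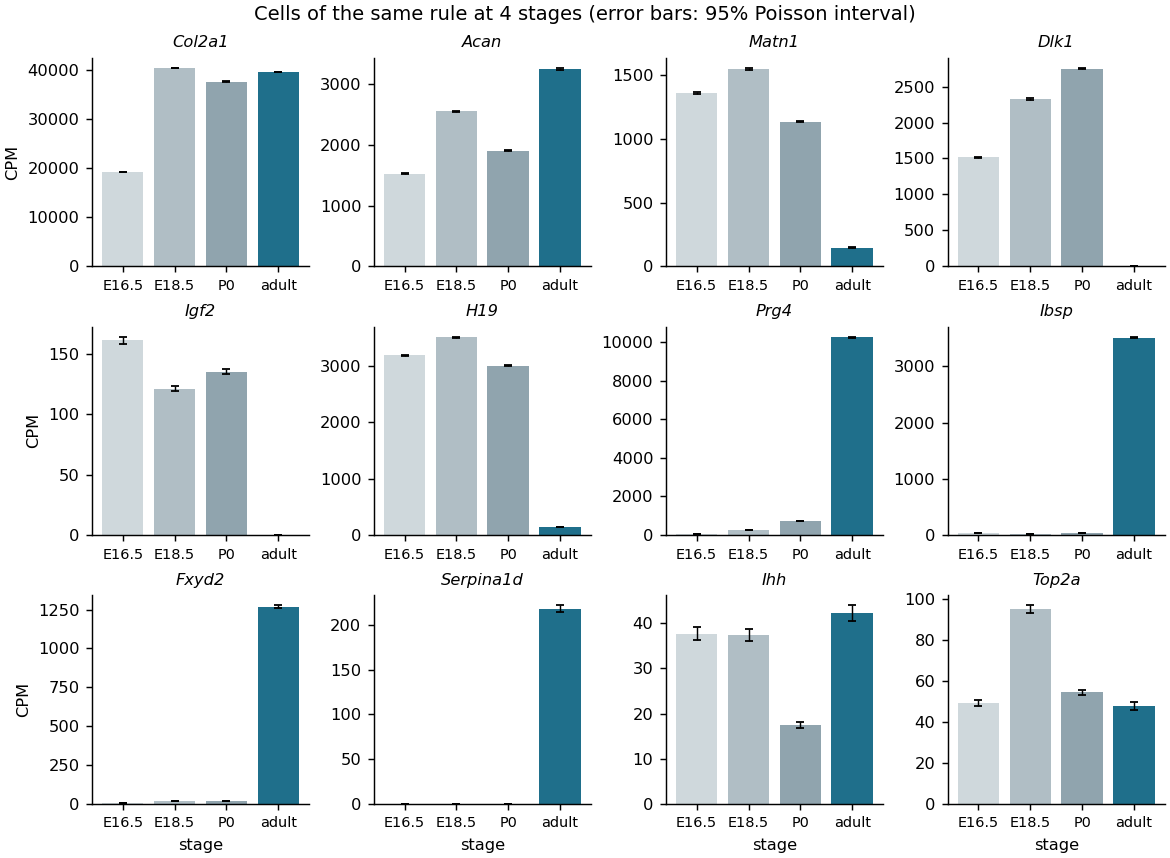
Level of 12 genes (panels; y axes, CPM of summed counts, each starting at 0) in the stromal cells of the same rule by stage from E16.5 to adult (x axes), with 1 library per stage and 95% Poisson intervals as error bars. Dlk1, Igf2, H19 and Matn1 are lowest in the adult, while Prg4, Ibsp, Fxyd2 and Serpina1d are highest there.

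Some genes were higher in the adult cartilage cells and stayed low in the other stroma. Fxyd2 was at 6.47 CPM at E16.5, 16.65 CPM at E18.5, 18.8 CPM at P0 and 1267.5 CPM in the adult cartilage cells, whereas in the other stroma it was at 5.89 CPM at P0 and 10.1 CPM in the adult. R3hdml, a secreted protein gene, was at 1.39 and 122 CPM in the cartilage cells and at 0.320 and 0.851 CPM in the others. Serpina1 transcripts numbered 22 UMIs in 9 of 8669 P0 cells, 0.152 CPM (0.0952 to 0.23) over the 5 copies, against 713 CPM (706 to 720.1) in the adult cartilage cells. In the other stroma they were also higher in the adult, at 0.0599 CPM at P0 and 12.1 CPM in the adult.

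For other genes the adult level was higher on both sides of the rule. Myoc, the myocilin gene, was at 1.00 CPM at P0 and 449 CPM in the adult cartilage cells, and at 9.27 and 1537 CPM in the others. Ibsp was at 38.7 CPM at P0 and 3510.0 CPM in the adult cartilage cells, and at 25.95 and 1071 CPM in the others. Gpx3, a secreted antioxidant enzyme, was at 14.15 and 707.5 CPM, and at 33.4 and 1288 CPM in the others. Clu, the gene of the chaperone clusterin, was at 93.8 and 2931 CPM, and at 29.2 and 1848 CPM in the others.

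The direction of Prg4, and the size of the difference in Ibsp and Clu, depended on the codes compared. Of 16 listed articular genes 11 could be compared, and 11 had a ratio above 1 of adult over P0, beside 750 of 1476 comparable genes. Of the articular genes 8 were at least 4-fold higher, against 4.47% of all comparable genes. Prg4 was at 10249.8 CPM in the adult and 745 CPM at P0. Markers of other cell types were higher too. At least 4-fold higher were 4 of 5 comparable markers of bone-forming cells and 3 of 4 of fibroblasts, with median log2 ratios of 6.502 and 3.215. Genes can reach the minimum through the adult alone, as Ibsp did. The counts of articular, bone and fibroblast genes can thus partly restate that filter. Among the 1079 adult cells of C9 to C11 Prg4 was at 441 CPM, against 858 CPM in 6049 P0 cells of the codes C1, C2i, C2ii, C5 and C8, the reverse direction, beside 295 CPM in adult endothelial-coded cells. Fxyd2 was at 2129.5 and 21.9 CPM in these codes, and Matn1 at 252 and 1356 CPM, so both kept their direction. Ibsp was at 371.5 and 46.4 CPM in these codes, and Clu at 255 and 97.9 CPM, so the ratio of Ibsp was smaller than over all codes and that of Clu was below 4. This comparison of C codes was chosen after the data were seen.

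Zone genes were present at every stage. Ihh was at 42.2 CPM in the adult cartilage cells, 17.4 CPM at P0, 37.4 CPM at E18.5 and 37.7 CPM at E16.5. Panx3 was at 123, 24.3, 53.3 and 61.2 CPM in the same order. Of 7 comparable prehypertrophic genes 4 were at least 4-fold higher in the adult than at P0, against 4.47% of all comparable genes. Genes such as Panx3 reached the minimum in the adult and not at P0, so this count can partly restate that filter. Top2a was at 47.8, 54.4, 94.9 and 49.2 CPM, highest at E18.5, and the intervals of the adult (45.95 to 49.7) and E16.5 (47.55 to 50.9) overlapped.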

How the data were processed

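Single-cell 3' libraries were aligned and counted by the authors with Cell Ranger 3.1.0 on mm10 and filtered in R 4.0 with Seurat 3.1.5, per the labels and the study's methods. The authors dropped cells with few UMIs, a high mitochondrial share or the most genes and UMIs (putative doublets), and genes seen in few cells. The deposited mRNA and antibody matrices hold raw counts. The mitochondrial share is deposited per cell as a fraction, with a median of 3.70% in the cartilage cells and 3.47% in the other adult stroma. No further doublet caller was run. Another 10 deposited columns per cell, such as cell cycle and stem cell scores, were not used.

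UMIs were summed over cells and scaled to CPM with Python 3.11.15, numpy 2.4.6, pandas 2.3.3 and scipy 1.17.1. A gene counted as higher or lower at a ratio of 4 or more, with 100 CPM and 50 UMIs in the higher group and counts under 3 set to 3. Named genes were those of 31 gene lists (346 of 347 in the matrix of 20275 genes) and the 15 with the highest ratios per comparison and direction, without mitochondrial genes, ribosomal protein genes and Gm42418; Nt5e and the Serpina1 copies in sum were added after values were seen. The members and lists were chosen with earlier results of these data known. At 100 CPM the interval ran from 2.67% below to 2.73% above in the cartilage cells, and from 11.7% below to 12.9% above in those of Osteo. The counting code was tested on simulated data. Other thresholds, rules, denominators, filters and stages were tried as alternatives.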

Additional observations from a re-analysis of the deposited data

How the results depend on the processing

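The share of the adult stroma was 44.46% at 3 UMIs or more, 34.23% at 10 or more and 41.87% with 1 UMI of each gene. It was 38.15% when cells were thinned to 1000 UMIs and needed only 1 UMI of either gene. By deposited codes it was 32.07%. These were the codes with most of their cells in the rule, so that alternative was not independent of the rule. With cells of 2 or more endothelial or blood UMIs left out it was 37.02%. F9 stayed the leading code, with 31.59% at 3 UMIs, 30.19% thinned, 45.57% by codes and 27.54% with those cells left out; the cause was not tested. A minimum of 20 CPM and 20 counts admitted more genes and gave 196 higher and 529 lower against the other stroma, and 172 higher and 88 lower against P0. With E16.5 in place of P0, 121 genes were higher; the cause was not tested. Within the C codes, compared after the data were seen, 50 were higher and 41 lower, of which 33 and 24 were also called over all codes. Of 649 values recomputed for the 59 leading ratios against the other stroma and P0, Hapln1 left out and the C code comparison included, 552 moved by less than 1 on the log2 scale, 97 by more in the same direction and 0 reversed; the minimum of 20 CPM is not counted, since it cannot move a ratio. Prg4 was not among these ratios, and within the C codes it was at 441 CPM in the adult and 858 CPM at P0, against the direction over all codes. No paired analysis was possible because each stage was 1 library and no result comes from a test. With 1 pooled library per stage, differences between animals are not measured, and stage cannot be told apart from library and bones taken. Depth limits genes near the floor, such as Igf2 in the adult.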

Other observations

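Outside the rule, 49 of 3757 adult stromal cells (1.30%, 0.966 to 1.72%) held more than 10 times the endothelial level of Col2a1 with fewer than 5 UMIs of Acan and Hapln1. They had 38715 CPM of Bglap, the osteocalcin gene, against 1736 CPM in the other cells outside the rule, and 43791 against 10234 CPM of Col1a1. Col9a3 was at 161 against 25.8 CPM in them, and the code Osteo held 10 of these cells, with 83116 CPM of Bglap, while the 5 in F10 and the 4 with an endothelial code had 0 CPM, so a part of the cells carried it. The cells were noticed in these counts and were chosen by Col2a1. The limit is a share of a cell's UMIs, so a shallow cell passes it with few Col2a1 UMIs. Endothelial-coded cells outside the rule held at most 10 Col2a1 UMIs, and the depth of the 49 cells was not examined.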
